A study of Mus musculus with 8 samples.

Results

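The 10 core pluripotency transcription factors Pou5f1, Nanog, Zfp42, Esrrb, Tfcp2l1, Nr5a2, Nr0b1, Prdm14, Tbx3 and Sall4 were followed through the conversion of mouse embryonic stem cells (ESC) into neural progenitor cells (NPC). They were given as a list of gene symbols, and all 10 were found among the 20512 named genes with exon values and among the 18655 named genes with intron values. The ESC were the hybrid line F1-21.6, a 129Sv-Cast/EiJ cross kept with serum and leukaemia inhibitory factor (LIF) over mouse embryonic fibroblasts inactivated by mitomycin C. The NPC were 1 clone differentiated from that same line, so both groups carry the same hybrid genome, and a feature of that clone cannot be told apart from a feature of NPC. The culture of the NPC is not described here. Effects of serum, LIF or feeder cells therefore cannot be told apart from those of cell type. RNA depleted of ribosomal RNA was sequenced from 2 biological replicates per cell type, each with 2 technical libraries. Nothing in the labels says whether the replicates came from separate cultures, so p-values measure the spread between these samples, which may be technical.

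The pluripotency network is a set of transcription factors that activate one another and themselves, and so hold ESC in a self-renewing state. Pou5f1 (Oct4) works with Sox2 on composite DNA sites, Nanog and the naive-state factors Esrrb, Tfcp2l1, Nr5a2, Tbx3 and Zfp42 reinforce that core, and Prdm14 and Sall4 act in part through repressor complexes. LIF, acting through Stat3, and Wnt signalling feed into the network from outside. The network is dismantled when ESC take a neural fate.

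All 10 factors were lower in NPC than in ESC, in exons and in introns alike. Exon levels are given in RPKM (reads scaled to transcript length and library size), which can be compared between genes because they are per length. They are the authors' pooled values, 1 per cell type, so they carry no replicate spread, and the exon depth is unknown. The 10 levels summed to 3378 RPKM in ESC and to 10.8 RPKM in NPC. The NPC level of each factor was between 0.222% and 1.50% of its ESC level, with a median of 0.339%, and for factors near the level of unused genes in NPC this share is no more than an upper limit. In bulk RNA of this kind, fewer cells holding a transcript and less transcript per cell cannot be told apart.

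By the authors' deposited table, 10 of 10 factors passed an adjusted p of 0.05 in the lower direction, against 33.9% of the 12509 genes tested (and 32.3% in the higher direction). Their median log2 fold change of NPC over ESC in that table was -8.41, against -0.07 over all tested genes. Of the 47 genes in it that were lower by a log2 fold change of -8 or beyond, 7 were pluripotency factors. A gene was tested if its ESC and NPC levels averaged 1 RPKM or more. Only 4 factors (Pou5f1, Nanog, Zfp42 and Esrrb) reached 1 RPKM in NPC, and the other 6 passed that filter through their ESC level, so their count describes the list and is not support for it.

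**Figure D1:**
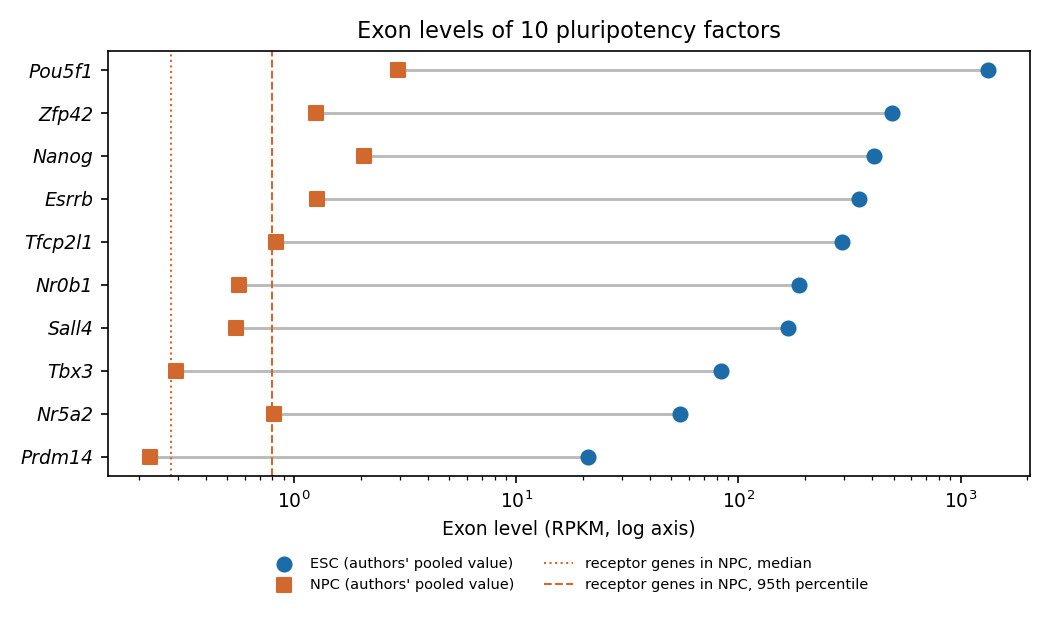
Exon levels in RPKM (log axis) of the 10 factors, ordered by ESC level, with circles for the authors' pooled ESC value and squares for the pooled NPC value. Vertical lines mark the median (0.279 RPKM) and the 95th percentile (0.797 RPKM) of olfactory, vomeronasal and taste receptor genes in NPC, and all NPC squares lie between 0.224 and 2.94 RPKM.

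Intron values came per biological replicate, each with its technical libraries combined. Introns are spliced out soon after they are made, so their reads come largely from unspliced RNA. By limma on log2(RPKM + 1), 10 of 10 factors were lower in NPC at an adjusted p of 0.05, against 34.0% of 8811 tested genes lower and 13.2% higher. Without a filter on low genes 7 of the 10 passed (Prdm14, Nr5a2 and Nr0b1 did not), and 9 of 10 did with columns scaled to the same median. Their median log2 difference was -3.04, against -0.43 over all tested genes. The size depends on the scale, since the pseudocount of 1 pulls low values together. The 10 differences ran from -6.86 to -0.97 here, from -9.11 to -1.84 with a pseudocount of 0.1 and from -8.69 to -2.03 with limma voom on recovered reads, from Pou5f1 to Prdm14 each time. When the columns were scaled to the same median, the all-gene median went from -0.43 to -0.04. Pou5f1 then went from -6.86 to -6.46 and Prdm14 from -0.97 to -0.57, so that part of each intron difference depends on the scaling. That scaling also moved the share of higher genes among all intron calls from 28.0% to 50.2% (2165 lower and 2185 higher). The all-gene intron count, 2998 lower and 1167 higher with all 4 columns, also changed when single replicate columns were left out. Both ESC values lay above both NPC values for 10 of 10 factors, which was also true of 55.5% of tested genes. None of the 10 reached a mean of 1 RPKM in NPC introns, so all passed the intron filter through ESC. With 2 against 2 samples, an exact permutation test of a single gene cannot go below p = 0.333 (two-sided).

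**Figure D2:**
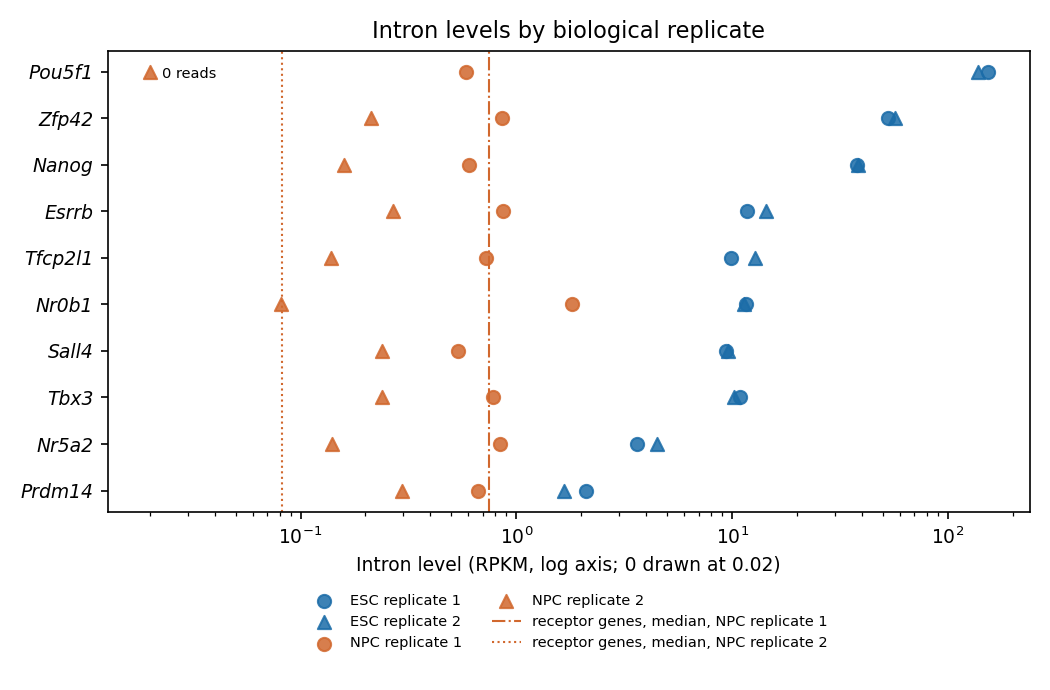
Intron levels in RPKM (log axis) of the 10 factors in each of the 4 biological replicates, with circles for replicate 1, triangles for replicate 2, and vertical lines for the median of receptor genes in each NPC replicate. Every ESC value lies to the right of both NPC values of its gene, and NPC replicate 1 lies to the right of NPC replicate 2 for all 10.

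Sensory receptor genes, which neither cell type is known to use, gave a level against which the remaining NPC signal can be read. Their 1458 members had a median exon level of 0 RPKM in ESC and 0.279 RPKM in NPC, with 99th percentiles of 0.371 and 1.11 RPKM. In introns their 237 members had a median of 0.747 RPKM in NPC replicate 1, 0.0822 in NPC replicate 2, 0.0283 in ESC replicate 1 and 0 in ESC replicate 2. NPC replicate 1 thus carried more signal over unused genes than the other 3 columns. Without it the 10 limma differences lay between -7.19 and -1.15, each larger in size than with all 4 columns, and without NPC replicate 2 they lay between -6.52 and -0.78. All 10 passed the threshold in limma either way.

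Pou5f1 (Entrez gene 18999), the POU-domain factor known as Oct4, starts at position 35642984 of chromosome 17 on the plus strand in mm9, the build named in the submitters' processing notes. It had 1327 RPKM in ESC exons, rank 20 among all named genes, and 2.94 RPKM in NPC. The NPC level is 0.222% of the ESC level and lies above that of 99.9% of receptor genes in NPC. Its deposited log2 fold change was -9.06 with an adjusted p of 1.42e-234 in the authors' deposited table. Its introns gave 153 and 137 RPKM in the 2 ESC replicates and 0.585 and 0 RPKM in the 2 NPC replicates. The NPC introns therefore rested on 2 reads in replicate 1 and none in replicate 2, where a count of 0 allows up to 0.980 RPKM (3 reads), against 1047 reads in ESC. The rate per column total was 468-fold higher in ESC, with an exact 95% interval of 129 to 3873 that covers counting error only. The limma difference was -6.86 (SE 0.65, adjusted p = 3.28e-05, NPC lower than ESC in both replicates). The deposited intron span of Pou5f1 is 749 bp long and begins 3500 bp after its start, so any intron before it was not counted.

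Nanog (Entrez gene 71950, chromosome 6, start at 122657583 on the plus strand in mm9) encodes the homeodomain factor that sustains self-renewal. It had 406 RPKM in ESC exons and 2.07 RPKM in NPC, which is 0.509% of the ESC level. This was the highest remaining share among the factors above 100 RPKM in ESC. The log2 fold change of Nanog was -7.80 with an adjusted p of 2.03e-178 in the authors' deposited table. ESC introns gave 37.7 and 38.3 RPKM (1057 and 1210 reads), and NPC introns 0.605 and 0.159 RPKM (17 and 4 reads). The ESC replicates were nearly equal, and the NPC replicates, both far below them, differed more in proportion. The limma difference was -4.84 (SE 0.45, adjusted p = 3.28e-05).

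Zfp42 (Entrez gene 22702, chromosome 8, start at 44392363 on the minus strand in mm9) encodes Rex1, a zinc finger protein of the YY1 family that is widely used as a marker of the naive state. Exons gave 492 RPKM in ESC, second to Pou5f1 in the list, and 1.26 RPKM in NPC, or 0.255% of the ESC level. The log2 fold change of Zfp42 was -8.89 with an adjusted p of 2.32e-202 in the authors' deposited table. Introns gave 52.8 and 56.7 RPKM in ESC and 0.860 and 0.211 RPKM in NPC. Its limma difference of -5.21 (SE 0.53, adjusted p = 4.04e-05) was the second in size after Pou5f1.

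RefSeq start-site windows were at hand for 7 of the 10 factors, in 11 windows. The stretches before the starts of Pou5f1, Nanog and Zfp42, the 3 factors with the highest ESC exon levels, are shown because these genes fell together and 2 of them hold matches to the sites that Pou5f1 is known to bind. They come from RefSeq on build GRCm38.p6, whose positions differ from those of mm9, and run 5′ to 3′ along the gene. Capitals mark the matches named after them.
Nanog, chr6:122707239-122707488, plus strand: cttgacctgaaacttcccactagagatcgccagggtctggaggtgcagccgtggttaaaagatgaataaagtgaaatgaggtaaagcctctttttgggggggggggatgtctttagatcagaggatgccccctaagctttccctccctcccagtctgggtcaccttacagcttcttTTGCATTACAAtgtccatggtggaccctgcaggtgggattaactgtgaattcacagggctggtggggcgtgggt
Zfp42, chr8:43307010-43307259, minus strand: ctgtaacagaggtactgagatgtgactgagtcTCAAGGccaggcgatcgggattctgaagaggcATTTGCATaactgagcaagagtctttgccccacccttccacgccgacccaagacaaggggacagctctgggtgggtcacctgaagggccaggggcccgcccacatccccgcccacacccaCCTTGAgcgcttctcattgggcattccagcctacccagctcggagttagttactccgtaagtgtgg
Pou5f1, chr17:35505782-35506031, plus strand: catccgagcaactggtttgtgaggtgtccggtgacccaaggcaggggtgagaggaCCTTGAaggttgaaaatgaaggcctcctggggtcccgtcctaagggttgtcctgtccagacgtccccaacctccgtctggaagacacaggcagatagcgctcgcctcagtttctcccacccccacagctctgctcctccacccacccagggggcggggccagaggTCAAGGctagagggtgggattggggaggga
In Nanog the capitals are TTGCATTACAA, the letters TTGCAT of an octamer followed after 1 base by the SOX letters ACAA, at -74 to -64 before the start. Of all 32851 windows of 250 bases, searched on both strands, 0.143% hold these letters with that gap, and both annotated starts of Nanog hold the same match. In Zfp42 the capitals ATTTGCAT at -186 to -179 are the octamer ATGCAAAT on the opposite strand, which 1.60% of windows hold (an octamer on that strand also contains TTGCAT). The other capitals, TCAAGG or its complement CCTTGA, are the core that orphan nuclear receptors such as Esrrb and Nr5a2 are known to bind. They lie at -218 to -213 and -66 to -61 in Zfp42 and at -195 to -190 and -30 to -25 in Pou5f1. Of all windows 12.5% hold that core. The other RefSeq window of Pou5f1, at a later start and not shown, holds none of the motifs searched here. The longer form TCAAGGTCA, held by 0.387% of windows, was in none of the factors' windows, nor was the Prdm14 motif GGTCTCTAA (0.240%) or a pair of CCAG 6 bases apart (2.78%), the spacing of CP2-family sites. A TATA box, TATAAA, which 12.4% of windows hold, lay at -28 to -23 in Tfcp2l1 and at -32 to -27 in Nr0b1, and on the opposite strand at -181 to -176 in 1 window of Nr5a2. The Klf core GGGNGTGG, held by 15.9% of windows, was in windows of Tfcp2l1, Nr5a2, Nanog, Zfp42 and Pou5f1, and the SOX core ACAAAG (16.5%) in Nr5a2 and Nr0b1. A match describes letters and is not evidence of binding. Fixed letters were searched, so variant forms of these sites, such as other bases in the longer receptor form, were not counted.

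Esrrb (Entrez gene 26380, chromosome 12, start at 87702067 on the plus strand in mm9) encodes an orphan nuclear receptor that can stand in for Nanog in self-renewal. Exon levels were 347 RPKM in ESC and 1.27 RPKM in NPC, or 0.365% of ESC. The log2 fold change of Esrrb was -8.35 with an adjusted p of 1.08e-180 in the authors' deposited table. Introns gave 11.8 and 14.3 RPKM in ESC and 0.869 and 0.267 RPKM in NPC. Its long introns put 2939 and 4034 reads behind the ESC values and 218 and 60 behind the NPC values, so counting error is small here. The limma difference was -3.18 (SE 0.32, adjusted p = 4.04e-05), and the groups did not overlap.

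Tfcp2l1 (Entrez gene 81879, chromosome 1, start at 120524522 on the plus strand in mm9) encodes a CP2-family factor that acts downstream of LIF and Stat3. It had 293 RPKM in ESC exons and 0.827 RPKM in NPC, or 0.283%. In the authors' deposited table its log2 fold change was -8.68 with an adjusted p of 1.72e-229, the second smallest adjusted p of the 10 after Pou5f1. ESC introns gave 9.84 and 12.7 RPKM and NPC introns 0.722 and 0.139 RPKM, with a limma difference of -3.12 (SE 0.30, adjusted p = 3.28e-05).

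Nr5a2 (Entrez gene 26424, chromosome 1, start at 138846139 on the minus strand in mm9) encodes the orphan nuclear receptor Lrh-1, which is known to bind regulatory sequence of Pou5f1. Its exon level of 54.4 RPKM in ESC was the second lowest of the 10, and the NPC level of 0.817 RPKM is 1.50% of it, the highest share of the list. The NPC level lay above that of 95.6% of receptor genes. In the authors' deposited table its log2 fold change was -5.77 with an adjusted p of 2.81e-06, the least extreme of the 10 on both measures. Introns gave 3.64 and 4.49 RPKM in ESC and 0.838 and 0.140 RPKM in NPC. These introns are the longest of the list at 103170 bp, so even the NPC values rest on 501 and 75 reads. The limma difference was -1.80 (SE 0.24, adjusted p = 0.000139), with an adjusted p of 0.0563 when low genes were not filtered. It was -3.13 with a pseudocount of 0.1 and -3.54 with limma voom.

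Nr0b1 (Entrez gene 11614, chromosome X, start at 83437114 on the plus strand in mm9) encodes Dax1, a nuclear receptor without the usual DNA-binding domain that acts as a corepressor. Exons gave 187 RPKM in ESC and 0.565 RPKM in NPC, or 0.302%. The log2 fold change was -8.70 with an adjusted p of 2.76e-120 in the authors' deposited table. ESC introns were close to each other at 11.6 and 11.4 RPKM, and NPC introns were 1.82 and 0.0811 RPKM. The NPC values came from 25 reads and 1 read. Their difference in RPKM was the widest between NPC replicates in the list, and the value in NPC replicate 1 lay above that of 97.0% of receptor genes there. The limma difference was -2.84 (SE 0.41, adjusted p = 0.000246). Leaving out NPC replicate 1 gave -3.53 and leaving out NPC replicate 2 gave -2.15, both past the threshold in limma. With no filter on low genes its adjusted p in limma was 0.0626.

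Prdm14 (Entrez gene 383491, chromosome 1, start at 13117244 on the minus strand in mm9) encodes a PR-domain protein that represses differentiation signals and DNA methyltransferase genes together with Polycomb proteins. It was the lowest factor in ESC, at 21.1 RPKM in exons, rank 5003 of the named genes. Its NPC level of 0.224 RPKM, 1.06% of ESC, lay below the median of receptor genes in NPC. In the authors' deposited table its log2 fold change was -6.32 with an adjusted p of 8.79e-10. Introns gave 2.10 and 1.66 RPKM in ESC (135 and 120 reads) and 0.666 and 0.294 RPKM in NPC (43 and 17 reads). The values did not overlap, but the limma difference of -0.97 (SE 0.19, adjusted p = 0.00195) was the smallest of the 10. It was -0.57 with an adjusted p of 0.181 in limma when the columns were scaled to the same median, so the intron call of Prdm14 depends on the scaling. It was -0.97 with an adjusted p of 0.0800 in limma without a filter on low genes, and without ESC replicate 1 the gene fell under the filter and had no test.

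Tbx3 (Entrez gene 21386, chromosome 5, start at 120120678 on the plus strand in mm9) encodes a T-box factor that acts mainly as a repressor of differentiation genes. Exon levels were 83.2 RPKM in ESC and 0.293 RPKM in NPC, or 0.353%. That NPC level lay above that of 52.2% of receptor genes, so it was not distinguishable from the level of unused genes. The log2 fold change of Tbx3 was -8.48 with an adjusted p of 1.92e-138 in the authors' deposited table. Introns gave 10.9 and 10.2 RPKM in ESC and 0.780 and 0.240 RPKM in NPC, with a limma difference of -2.95 (SE 0.28, adjusted p = 3.42e-05). RefSeq lists 2 antisense genes at Tbx3 (Tbx3os1 and Tbx3os2), and as the strand setting of the counting is not known, their reads cannot be told apart from those of Tbx3.

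Sall4 (Entrez gene 99377, chromosome 2, start at 168592701 on the minus strand in mm9) encodes a zinc finger protein that recruits the NuRD corepressor. Exons gave 168 RPKM in ESC and 0.547 RPKM in NPC, or 0.326%. In the authors' deposited table its log2 fold change was -8.26 with an adjusted p of 9.64e-35. Introns gave 9.37 and 9.53 RPKM in ESC and 0.538 and 0.238 RPKM in NPC. ESC replicates differed by less than in any other factor in SD (0.112 RPKM), and the limma difference of -2.92 (SE 0.25, adjusted p = 2.75e-05) had the smallest adjusted p of the list.

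Ordered by ESC introns, Pou5f1, Zfp42 and Nanog stood apart from the rest, with no overlap between neighbours in that order. Below them Esrrb, Tfcp2l1, Nr0b1, Tbx3 and Sall4 lay between 9.37 and 14.3 RPKM. Within that band the values of Tfcp2l1 overlapped those of Esrrb, Nr0b1 and Tbx3, so their order is not resolved by the replicates. Nr5a2 followed with 3.64 and 4.49 RPKM and Prdm14 with 2.10 and 1.66 RPKM, each without overlap with its neighbour. Exon and intron levels in ESC gave nearly the same order over the 10 genes (Spearman's rho 0.98, a description over genes measured in the same libraries).

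The ratio of exon to intron level in ESC differed among the factors. It was 26.6 for Esrrb and 26.0 for Tfcp2l1, above 90.8% and 90.3% of 7702 genes. These were the genes that reached 1 RPKM in ESC exons and a mean of 1 RPKM in ESC introns. Sall4 had 17.8, Nr0b1 16.3, Nr5a2 13.4, Prdm14 11.3, Nanog 10.7, Pou5f1 9.14, Zfp42 8.98 and Tbx3 7.91. The median over those 7702 genes was 7.90. Esrrb and Tfcp2l1, with low intron levels for their exon levels, and Tbx3, at the median of those genes, mark the ends of the list. The deposited intron span of Esrrb begins 109439 bp after its start, so any intron before it was not counted. What this does to the ratio of Esrrb was not tested. Exon pools and intron columns were normalized separately, so the ratio orders genes and has no absolute meaning.

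NPC levels followed the ESC order as well, with a Spearman's rho of 0.89 between ESC and NPC exon levels over the 10 factors. In exons the 4 factors at 1 RPKM or more in NPC lay above the 99th percentile of receptor genes, Tfcp2l1 and Nr5a2 just above the 95th, and Nr0b1, Sall4, Tbx3 and Prdm14 below it. In introns none of the 10 reached the 99th percentile of receptor genes in either NPC replicate, which was 2.29 RPKM in replicate 1 and 0.635 RPKM in replicate 2. For Nanog, Zfp42 and Esrrb, exon signal in NPC was thus above that of nearly all unused genes while intron signal lay within their range. For Pou5f1 the same holds of exons, but its short intron span cannot show it for introns. There 0 reads in NPC replicate 2 allow 0.980 RPKM. In ESC the ratio of exon to intron level was 10.7 for Nanog, 8.98 for Zfp42 and 26.6 for Esrrb. At such ratios, introns that matched the NPC exon levels would lie within the receptor range too. The contrast therefore cannot show whether these genes were still transcribed in NPC.

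**Figure D3:**
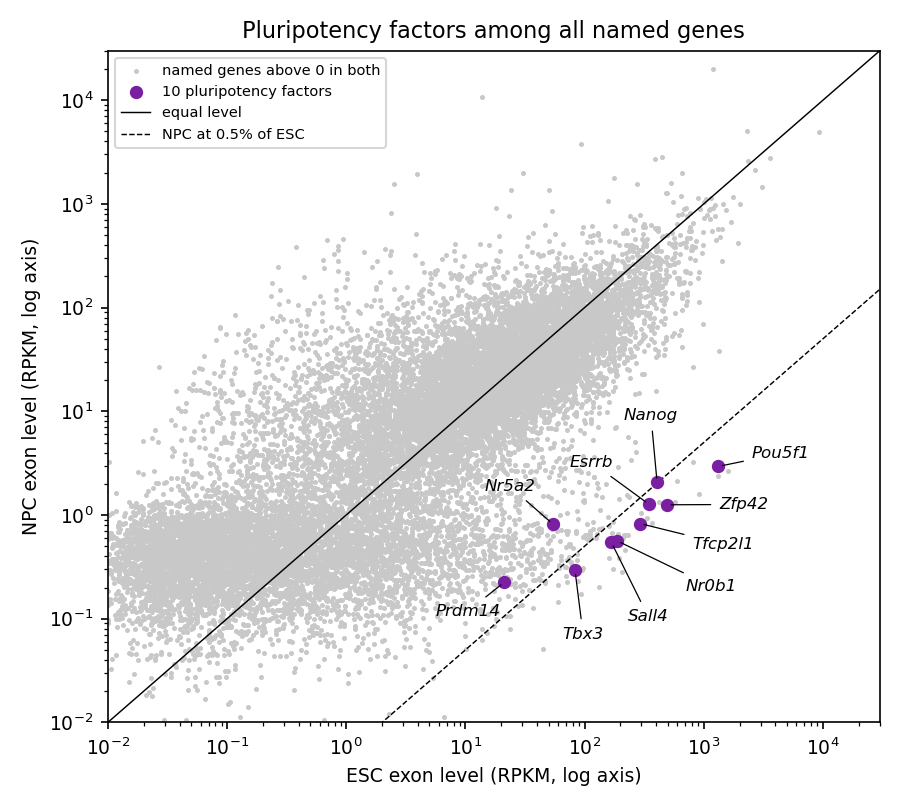
Authors' pooled exon levels in ESC (horizontal) and NPC (vertical), in RPKM on log axes, for all named genes above 0 in both cell types (grey) and the 10 factors (purple), with lines for equal levels and for an NPC level of 0.5% of ESC. Of the 10 factors, 7 lie under the dashed line, and Nanog (0.509%), Prdm14 (1.06%) and Nr5a2 (1.50%) lie above it.

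Among the 1340 genes at 100 RPKM or more in ESC, 34 kept 0.5% or less in NPC. Pou5f1 had 9 genes below it in that order, Zfp42 13, Tfcp2l1 17, Nr0b1 21, Sall4 24, Esrrb 28 and Nanog 34. The lowest shares were those of Rpl10l (0.138%), Khdc3 (0.151%) and Dppa5a (0.166%). In the reverse direction, of 1155 genes at 100 RPKM or more in NPC, 26 had 0.5% or less in ESC, down to 0.0975% for S100b. Prdm14, Nr5a2 and Tbx3 were below 100 RPKM in ESC and are not in that order.

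Among the 17965 genes in both tables, the gene nearest to each factor in its 6 values (distance of log2(RPKM + 1) over 2 exon and 4 intron values) was found. Esrrb and Tfcp2l1 were close to each other, and Tfcp2l1 was the nearest gene to Esrrb at a distance of 0.53. Pou5f1 had no close match, since its nearest gene L1td1 lay 1.88 away, with 1384 RPKM in ESC exons and 2.93 in NPC but only 63.5 and 55.8 RPKM in ESC introns. Nanog was nearest to Pnma5 (0.85), Zfp42 to the hormone precursor gene Trh (0.56) and Nr0b1 to the RNA-binding protein gene Igf2bp1 (0.72). Tfcp2l1 was nearest to Dnmt3l (0.50), Sall4 to Stmn2 (0.44), Nr5a2 to AI662270 (0.48), Prdm14 to Cgref1 (0.33) and Tbx3 to the ubiquitin ligase gene Trim25 (0.31). Small distances of low genes are partly set by the pseudocount.

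Relatives of the factors by protein family did not share one direction, while over all tested genes 33.9% were lower and 32.3% higher. Some relatives passed the filter through 1 cell type, such as Pou3f2 and Nr2f1 through NPC and Pou4f2 through ESC. The family counts therefore only describe these lists. Of 7 tested POU genes other than Pou5f1, 4 were higher and 3 lower in NPC by the authors' deposited table. The class III genes Pou3f3 (0.840 RPKM in ESC, 102 in NPC) and Pou3f2 (0.265 and 49.9) were the POU genes with the highest NPC levels, while Pou4f2 went from 52.3 to 0.465 RPKM. Of 3 SALL genes, Sall2 rose from 2.56 to 68.5 RPKM and Sall3 from 6.35 to 56.8 RPKM, and Sall1 fell from 114 to 54.0 RPKM, each past the threshold in the deposited table. Sall1 thus kept a level in NPC at which Sall4 (0.547 RPKM) was no longer found.

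Of 5 tested nuclear receptors related to Esrrb, Nr5a2 and Nr0b1, 3 were higher, 1 lower and 1 did not pass. Nr2f1 rose from 0.308 to 59.8 RPKM and Nr2f2 from 0.501 to 23.0 RPKM. Esrrg, a close relative of Esrrb, rose from 0.0863 to 3.55 RPKM, and the germ cell nuclear factor gene Nr6a1 fell from 19.7 to 1.63 RPKM. Of 5 T-box genes, Tbx15 (1.29 to 38.3 RPKM), Tbx18 (0.573 to 35.2) and Tbx2 (0.401 to 4.51) were higher, Mga (135 to 51.5) was lower, and Eomes did not pass. All of these calls are those of the deposited table, in which 33.9% of all tested genes were lower and 32.3% higher.

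In the CP2 and Grainyhead family, Grhl3 (23.8 to 0.242 RPKM), Grhl2 (21.4 to 0.304) and Grhl1 (7.09 to 1.06) were lower along with Tfcp2l1, Tfcp2 was higher, and Ubp1 had 56.0 RPKM in ESC and 47.6 RPKM in NPC with an adjusted p of 0.295 in the authors' deposited table. Yy1, the relative of Zfp42, had 119 RPKM in ESC and 88.9 RPKM in NPC, with an adjusted p of 0.0629 in the authors' deposited table. Of 8 tested PRDM genes, 4 were lower (among them Prdm4, 51.4 to 16.8 RPKM, Prdm2, 44.1 to 26.6, and Prdm1, 10.4 to 2.90), 3 were higher (among them Prdm9, 1.09 to 5.18 RPKM, and Prdm8, 0.154 to 5.10) and 1 did not pass. Of 2 tested homeobox relatives of Nanog, Vax2 rose from 0.316 to 12.0 RPKM and Nkx6-2 fell from 3.14 to 0.0352 RPKM. Nkx2-2 had 0.979 RPKM in ESC and 0.557 RPKM in NPC and was not tested. These family counts stand beside 33.9% of all tested genes lower and 32.3% higher.

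**Figure D4:**
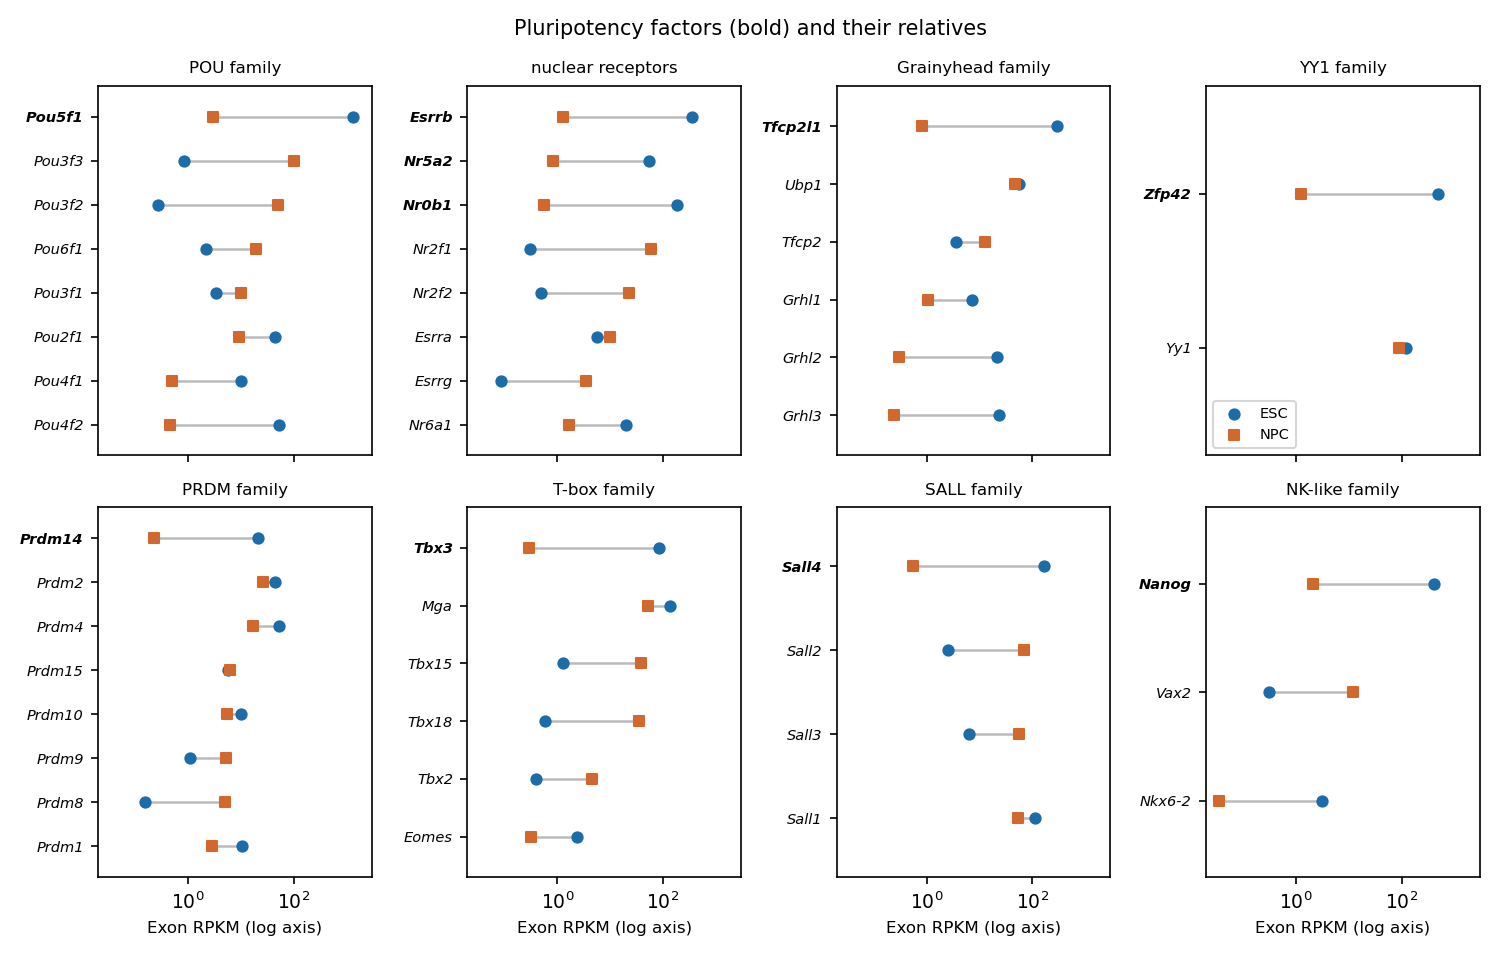
Authors' pooled exon levels in RPKM (log axis) of the factors (bold) and of their relatives in 8 protein families, with circles for ESC and squares for NPC. In each family the factor's square lies left of its circle, while relatives such as Pou3f3, Nr2f1, Sall2 and Tbx15 have their squares to the right.

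Genes known as direct targets of Pou5f1, Sox2 or Nanog were lower as well, 20 of 20 in the authors' deposited table (33.9% of all tested genes), with a median log2 fold change of -7.89. They included Dppa5a (1606 to 2.66 RPKM), Tdgf1, the Nodal coreceptor gene (1306 to 2.40), L1td1 (1384 to 2.93) and Dppa3 (44.5 to 0.0513). In introns 17 of 17 tested targets were lower by limma (34.0% of all tested genes), with a median log2 difference of -3.35. Several targets passed the filters through their ESC level, such as Bmp4 (0.353 RPKM) and Fgf4 (0.656 RPKM) in NPC exons. The same holds in introns, for example for Tdgf1 (0.870 and 0.211 RPKM in NPC). These counts therefore describe the list and are not support for it. Of 27 other transcription factors of the network, 22 were lower, 2 higher and 3 did not pass in the deposited table, with a median of -2.37. Among them Klf5 went from 119 to 0.729 RPKM, Klf2 from 226 to 1.55, Foxd3 from 25.9 to 0.156 and Mybl2 from 263 to 5.11. Rest, a repressor of neuronal genes, went from 317 to 71.7 RPKM and so kept far more of its ESC level than the 10 factors did. By limma 13 of 21 of these genes were lower in introns, 2 were higher and 6 did not pass. Sox2 was not analysed here.

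The protein partners of the factors had a median log2 fold change of -0.66 in the authors' deposited table. Of 27 such chromatin and corepressor genes, 18 were lower (33.9% of all tested genes), 1 (Mta1, 39.9 to 83.4 RPKM) was higher and 8 did not pass. The Polycomb gene Eed went from 486 to 51.9 RPKM, Trim28 from 716 to 105 and Wdr5 from 193 to 32.9, while the histone chaperone gene Rbbp7 went from 421 to 249 RPKM. By limma 9 of 27 were lower in introns and 18 did not pass, a share near the 34.0% of all tested genes. Of the LIF, Wnt, FGF and BMP input genes, 12 of 22 were higher in exons (32.3% of all tested genes), 3 lower and 7 did not pass, with a median of 0.72. Id2, a BMP target, rose from 26.5 to 183 RPKM, Id3 from 54.7 to 179 and Smad5 from 18.4 to 162, while Bmp4 fell from 46.6 to 0.353 and Tcf7 from 11.1 to 1.37. Ctnnb1, which encodes beta-catenin, had 658 RPKM in ESC and 797 RPKM in NPC with an adjusted p of 0.631 in the authors' deposited table. By limma 8 of 21 were higher in introns (13.2% of all tested genes), 2 lower and 11 did not pass. Stat3, Tcf7l1 and Smad1 stand both here and among the other transcription factors.

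Positions on the chromosomes were compared for tested genes with a start within 250 kb of a factor's start in mm9, a window chosen after the data were available. Of 23 such genes, 9 were lower, 7 higher and 7 did not pass in the authors' deposited table, shares near those of all tested genes (33.9% lower and 32.3% higher). Both neighbours of Zfp42 were lower, Triml2 going from 104 to 0.637 RPKM and Triml1 from 49.7 to 0.541. Of 7 neighbours of Nanog, 4 were lower, with Dppa3 (44.5 to 0.0513 RPKM), Gdf3 (47.0 to 0.233) and the glucose transporter gene Slc2a3 (401 to 15.7) far lower and Necap1 (71.0 to 48.2) moderately so. The other 3 neighbours of Nanog (Apobec1, Foxj2 and Rimklb) were higher, by at most 1.29 on the log2 scale. Around Pou5f1 2 of 7 neighbours were lower and 2 higher, and Ddr1, 195 kb away, rose from 7.01 to 72.3 RPKM. Nr5a2 and Tbx3 had no tested gene in that window. Farther out, the nearest tested gene on the lower side of Prdm14 was Sulf1, 435 kb away, which fell from 35.0 to 0.579 RPKM.

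**Figure D5:**
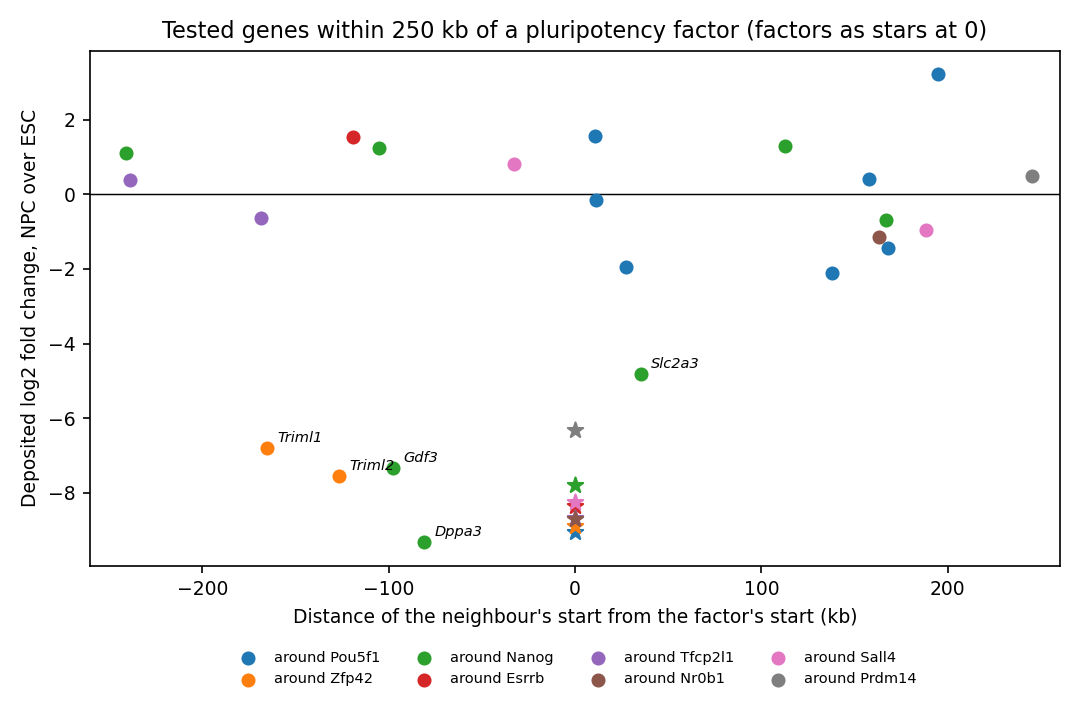
Deposited log2 fold change of NPC over ESC (vertical) of tested genes within 250 kb of a factor, against the signed distance between start sites in kb (horizontal, positive toward higher positions), coloured by factor, with the factors as stars at 0. Dppa3, Gdf3, Slc2a3, Triml1 and Triml2 lie below -4, and all other neighbours lie above -2.5.

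Marker lists checked the labels of both cell types and other cells that could be present. ESC markers were lower in NPC for 9 of 9 tested genes and NPC markers higher for 12 of 12, with Fabp7 going from 13.7 to 10684 RPKM, Olig2 from 0.686 to 448, Hes5 from 0.263 to 74.8 and Vim from 393 to 2741, all by the authors' deposited table. Over all tested genes 33.9% were lower and 32.3% higher. Every tested ESC marker except Lin28a also stands among the targets or other network factors above, so these markers are not a separate check. Sox1 was not analysed here. Fibroblast markers, which feeder cells would bring to the ESC samples, summed to 120 RPKM over 16 genes in ESC and 75.5 RPKM in NPC. Of these 9 were lower, 4 higher and 3 did not pass, and none was under 0.1 RPKM in ESC. Tagln fell from 36.0 to 0.797 RPKM, Acta2 from 12.3 to 0.827 and Col1a1 from 4.96 to 0.337, while Twist1 rose from 6.99 to 26.8 RPKM and Col6a1 from 7.51 to 14.8. Summed levels in ESC and NPC were 182 and 2.14 RPKM for 6 genes of 2-cell-like cells (6 of 6 lower), 104 and 7.997 RPKM for 9 germ cell genes (7 of 8 tested lower), 77.7 and 2.69 RPKM for 9 trophoblast genes (5 of 6 lower) and 14.8 and 19.3 RPKM for 11 primitive endoderm genes (1 of 3 lower, 1 higher). Among the 2-cell-like genes Tcstv1 fell from 85.5 to 0.708 RPKM, Tcstv3 from 59.0 to 0.785, Zscan4d from 19.3 to 0.155 and Zscan4c from 5.36 to 0.0270. Of the germ cell genes Sycp3 fell from 43.0 to 1.05 RPKM and Dazl from 9.40 to 0.464, and Tfap2c, also a trophoblast gene, from 17.3 to 0.216. The trophoblast list also held Krt18 (40.4 to 0.368 RPKM) and Krt8 (10.5 to 0.1998), while its members Cdx2 and Elf5, named after their values were seen, were under 0.1 RPKM in ESC. Of the primitive endoderm genes Hnf4a fell from 7.12 to 0.250 RPKM, Dab2 rose from 0.805 to 9.49, and Pdgfra had 3.50 and 5.80 RPKM and did not pass. The part of these cells in the factors' ESC levels was not tested.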

How the data were processed

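The report concerns 10 genes in 8 RNA-seq libraries of 50 bp single reads (2 cell types, 2 biological replicates, 2 technical libraries each). The members and lists were chosen with earlier results of these data known. Exon log2 fold changes, adjusted p-values and pooled RPKM were deposited by the authors, and the submitters' processing notes name DESeq2 1.10.0 and mm9. For the aligner, counter, annotation, strand setting and treatment of reads shared with copies (RefSeq lists 7 related copies of Pou5f1, 2 of Nanog and 1 of Zfp42) the answer was not given in the sources used here. No replicate values accompany the exon table, so its calls were read as deposited at 0.05. Whether technical libraries entered that test as replicates is not known, so those adjusted p-values may be too small.

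The authors deposited intron values per biological replicate with no unit named, and RPKM was inferred from the values. Whole reads (tolerance 0.001) were recovered for 18447 of 18447 genes above 0, with 5630658 and 6347733 reads in the ESC replicates and 5664818 and 5065295 in the NPC replicates. For 1648 genes several intron lengths gave whole reads, and the smallest was taken. None of the 10 factors was among them. Genes averaging 1 RPKM or more over the 4 columns were tested as log2(RPKM + 1) in limma 3.58.1 (R 4.3.3, trend on, Benjamini-Hochberg adjustment), which understates changes of low genes. On simulated data of 8811 genes for this comparison it recovered 97% of log2 changes of 2 and 100% of log2 changes of 4, with 12 false calls. The simulated spread was taken from the ESC replicates alone, with no shift between columns. The real NPC replicates differed by a median log2 of 0.42 against 0.015 in ESC, so these figures may be too favourable. Named genes were all 10 factors, the nearest gene to each, and of each list the 3 with the highest exon level in either cell type and the 3 with the largest deposited change. Others named (further list genes, neighbours, lowest shares) were chosen after their values were seen. Intervals and floors cover counting error only. Genes without a name (84 exon, 64 intron) were left out. Sox1, Sox2, Pou5f2 and Yy2 were not analysed here, and 1 further gene of a list is not reported here.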

Additional observations from a re-analysis of the deposited data

How the results depend on the processing

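The exon calls of the 10 factors are the authors' and held at every filter: 10 of 10 were lower when genes had to average 10 RPKM and with no filter. At the stricter filter 2534 genes in all were higher. Log2 ratios of exon RPKM + 1 and RPKM + 0.1, which have no test, kept the direction of all 10 but moved all 20 values, to between -8.40 and -4.18 with RPKM + 1 (Prdm14 -4.18, Tbx3 -6.02) and between -8.77 and -5.89 with RPKM + 0.1. In limma on introns, 124 of 128 values of single factors over 13 settings kept direction and call. Prdm14 lost its call with columns scaled to the same median (-0.57, adjusted p = 0.181), and without a filter on low genes Prdm14 (-0.97, adjusted p = 0.0800), Nr0b1 (-2.84, adjusted p = 0.0626) and Nr5a2 (-1.80, adjusted p = 0.0563) did. When genes had to average 2 RPKM, and when ESC replicate 1 was left out, Prdm14 was not tested, which left 9 of 9 factors lower. The cause was not tested.

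Over all genes, intron calls (lower and higher) numbered 2998 and 1167, and 940 and 226 without a filter. Higher genes numbered 541 with a mean of at least 2 RPKM, 753 without trend, 2185 with columns scaled to the same median and 2733 with quantile normalization. With 1 replicate left out, lower genes ranged from 1063 to 5394 and higher genes from 695 to 2165, where the lone sample is assumed to vary like the other group. Same-numbered replicates did not deviate together (correlation 0.02 over 8811 genes), and a replicate block gave 2632 lower and 1145 higher genes and 10 of 10 factors lower. Counts of reads for Pou5f1 and Nr0b1 in NPC introns (2 reads, and 1 read in replicate 2 of Nr0b1) limit any statement on what remains there.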

Other observations

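The authors' adjusted p-values separated 3 factors from the other 7. In the authors' deposited table, Nr5a2 (2.81e-06), Prdm14 (8.79e-10) and Sall4 (9.64e-35) had larger adjusted p-values than the rest, which lay between 2.76e-120 and 1.42e-234. Sall4 did so at 168 RPKM in ESC, close to Nr0b1 at 187 RPKM with 2.76e-120. For the same 3 factors the log2 ratio of the pooled RPKM was below the deposited log2 fold change, by 0.24 for Prdm14 and 0.28 for Nr5a2 and by under 0.01 for Sall4, while for the other 7 it was above it by 0.18 to 0.33. Among 410 genes with a deposited log2 fold change of -5 or beyond that passed and lay above 0 in both cell types, 35.1% had an RPKM ratio below the deposited value. Their median adjusted p in the authors' deposited table was 7.08e-09, against 8.06e-45 for the others, at median ESC levels of 23.6 and 33.9 RPKM. The exon table has no replicate values, so whether single libraries stand behind this was not tested. Sall4 introns, given per replicate, were within 0.112 RPKM (SD) in ESC.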
